A study of Mus musculus with 4 samples.

Results

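The AP-1 and immediate early genes were described in sciatic nerves of mice whose Schwann cells lacked the kinase LKB1. The members were 10 genes, Jun, Junb, Jund, Fos, Fosb, Fosl2, Atf3, Egr1, Ier2 and Dusp1. They were chosen by name through the platform annotation, which gave 13 of the 45281 probes on the array, and 9 of the 10 genes were among the 10858 genes tested. RNA was measured on Illumina beadchips at postnatal day 60, in 2 control pools and 2 LKB1-SCKO pools. Each pool held 3 nerves from 3 different mice, so that 6 mice stood behind each genotype. All mice had a mixed FVB/C57BL/6 background and carried floxed LKB1 alleles, as far as the labels describe the genotypes. Control mice had no Cre recombinase, while LKB1-SCKO mice lacked the gene of LKB1, Stk11, in their Schwann cells. The driver of Cre is not given in the sources used here. The other cells of the nerve, such as fibroblasts, endothelium and macrophages, keep the gene by design.

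AP-1 is a family of dimeric transcription factors built from JUN proteins (Jun, Junb, Jund) paired with FOS proteins (Fos, Fosb, Fosl2) or with relatives such as Atf3. The dimers bind the DNA letters TGACTCA or the related TGACGTCA. Many of these genes are immediate early genes, which cells transcribe within minutes of a growth factor, stress or injury signal and whose mRNAs are short-lived. In Schwann cells, Jun is low in myelinating cells, is induced by nerve injury, and drives the repair programme of the injured nerve. Egr1 encodes a zinc finger factor, Ier2 a short nuclear protein, and Dusp1 a phosphatase that switches off the MAP kinases which activate JUN and FOS proteins.

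The stretch just before the transcription start of these genes is where the factors themselves, and the signals that induce them, can act. RefSeq promoter entries (GRCm38.p6) were matched for 8 of the 10 genes, and the 250 bases before the start were searched on both strands for 5 motifs. These were TGACTCA, TGACGTCA, its variant TGACATCA, the core TGACG that also lies within TGACGTCA, and the CArG box bound by serum response factor. Sequences are printed 5′ to 3′ for Jun, Junb and Fos, whose pools separated by genotype, and for Dusp1, which lay in the opposite direction. The window of Fosl2, whose pools also separated, held none of the 5 motifs and is not printed. Capitals mark the motif matches.
Jun: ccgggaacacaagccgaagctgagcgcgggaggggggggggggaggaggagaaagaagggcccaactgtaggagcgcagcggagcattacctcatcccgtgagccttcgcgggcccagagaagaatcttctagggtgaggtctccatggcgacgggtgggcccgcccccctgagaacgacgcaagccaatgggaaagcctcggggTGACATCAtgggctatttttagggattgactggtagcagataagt
Junb: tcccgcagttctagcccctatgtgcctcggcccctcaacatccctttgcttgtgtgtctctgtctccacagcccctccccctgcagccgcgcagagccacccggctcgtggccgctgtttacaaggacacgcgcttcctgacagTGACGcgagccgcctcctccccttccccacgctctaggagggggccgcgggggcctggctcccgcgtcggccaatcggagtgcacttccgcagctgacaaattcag
Fos: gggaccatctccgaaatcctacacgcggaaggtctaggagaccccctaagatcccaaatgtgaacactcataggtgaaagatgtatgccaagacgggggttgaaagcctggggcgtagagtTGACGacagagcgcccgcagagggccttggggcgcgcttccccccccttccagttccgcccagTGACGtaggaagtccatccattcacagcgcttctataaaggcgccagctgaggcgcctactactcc
Dusp1: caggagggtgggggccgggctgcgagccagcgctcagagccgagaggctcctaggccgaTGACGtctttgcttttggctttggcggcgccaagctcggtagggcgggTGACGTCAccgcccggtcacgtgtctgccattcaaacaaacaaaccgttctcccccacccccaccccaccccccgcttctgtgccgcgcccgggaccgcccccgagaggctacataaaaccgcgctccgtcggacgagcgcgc
The windows are chr4:95052223-95052472 for Jun, chr8:84978749-84978998 for Junb and chr17:26508473-26508722 for Dusp1, all on the minus strand, and chr12:85473640-85473889 for Fos on the plus strand. Jun held TGACATCA from 45 to 38 bases before the start, a match that 2.93% of 32851 promoter windows of this length had. Dusp1 held TGACGTCA from 143 to 136 bases before the start, against 1.55% of all windows. The core TGACG stood at 129 and 66 bases before the start of Fos and at 106 before that of Junb. It was present in 5 of the 8 members and in 17.8% of all windows. TGACTCA (4.46% of all windows) and the CArG box (1.47%) were matched in 0 of the 8 windows. Egr1 and Ier2 had no window, and bases farther upstream were not searched. The absence of a match therefore holds for these windows only, not for the promoters as wholes. A match describes the letters only, and these data hold no measure of binding.

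None of the 9 tested members passed the test across all genes, while 4 of them had every LKB1-SCKO pool above every control pool. Log2 values were compared with limma and Benjamini-Hochberg adjustment at 0.05. In that fit 412 of 10858 genes passed, 3.79% of those tested, with 267 higher (2.46%) and 145 lower (1.34%) in LKB1-SCKO. The count among members was 0 of 9 in either direction, and 4 of 9 had an unadjusted p under 0.05 (background 22.4%), all of them higher in LKB1-SCKO (background 12%). Of the 9, 7 lay above 0 and 2 below, with a median log2 fold change of 0.70 against 0.01 over all genes tested. Pools of the genotypes did not overlap for 4 members, Jun, Junb, Fos and Fosl2, all higher in LKB1-SCKO. The same held for 55.1% of all genes in either direction and for 29.3% in the higher direction. With 2 pools against 2, an exact permutation test of a single gene could not go below 0.333.

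Stk11, the deleted gene, was measured first as a check of the labels. Controls 1 and 2 had log2 values of 9.70 and 9.83, and LKB1-SCKO 1 and 2 had 8.93 and 9.01. The fitted difference was -0.80 on the log2 scale (SE 0.133) and passed in limma with an adjusted p of 0.0448. The direction is that of the genotype labels, but the call was lost whichever pool was left out (adjusted p from 0.0704 to 0.217). The labels do not say whether this probe targets the deleted exons. Between 19588 and 20627 probes were detected per array. Schwann cell markers were present throughout, with 5 of 8 tested and mean log2 values between 13.49 and 13.55 in the 4 pools. Their unprocessed signals summed to 130370 and 123344 in control pools and to 102736 and 120364 in LKB1-SCKO pools. Pmp22 (log2 fold change -0.42) was lower and Mag (0.26) higher in both LKB1-SCKO pools, and the pools overlapped for Mbp, Sox10 and S100b. Markers of muscle, blood, macrophages and fat differed between pools, and their values are given with those of the members. In these bulk nerves, more cells of a type and more RNA per cell cannot be told apart.

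Among the JUN genes, Jun and Junb RNA was higher in both LKB1-SCKO pools and Jund was not separated. Jun, the AP-1 subunit of Schwann cell injury responses, gave unprocessed signals of 568 and 478 in control 1 and control 2, and of 755 and 800 in LKB1-SCKO 1 and 2. Both LKB1-SCKO pools thus lay above both controls, and they differed from each other by 0.03 on the log2 scale against 0.37 between the control pools. Its log2 fold change was 0.79 (SE 0.168, 95% interval 0.37 to 1.22), or 1.73-fold, and the adjusted p was 0.0740 in limma. Jun passed the threshold in 2 other processing settings, without background correction (adjusted p = 0.0362) and with a larger offset of 50 (adjusted p = 0.0440). The value ran from 0.61 without control 2 to 0.98 without control 1, and its adjusted p over all alternatives ran from 0.0362 to 0.287.

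Junb, a JUN protein that often restrains the activity of Jun, had a pattern close to that of Jun. Its signals were 550 and 404 in controls and 622 and 686 in LKB1-SCKO pools. Again the pools did not overlap, but control 2 lay well below control 1, a gap of 0.65 that was wider than that of 95.5% of all genes. The log2 fold change was 0.70 (SE 0.236, adjusted p = 0.177 in limma), and it ranged from 0.37 without control 2 to 1.02 without control 1. Jund, the JUN protein that many resting cells express, gave 273 and 322 in control pools and 329 and 310 in LKB1-SCKO pools. Its pools overlapped, and its log2 fold change of 0.24 (95% interval -0.25 to 0.72) left room for a difference in either direction. A further Junb probe was not detected on any array, so each JUN gene rests on 1 probe. In the fit over all 19732 kept probes, 2.52% passed and 0 of the 9 kept probes of the members did.

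**Figure D1:**
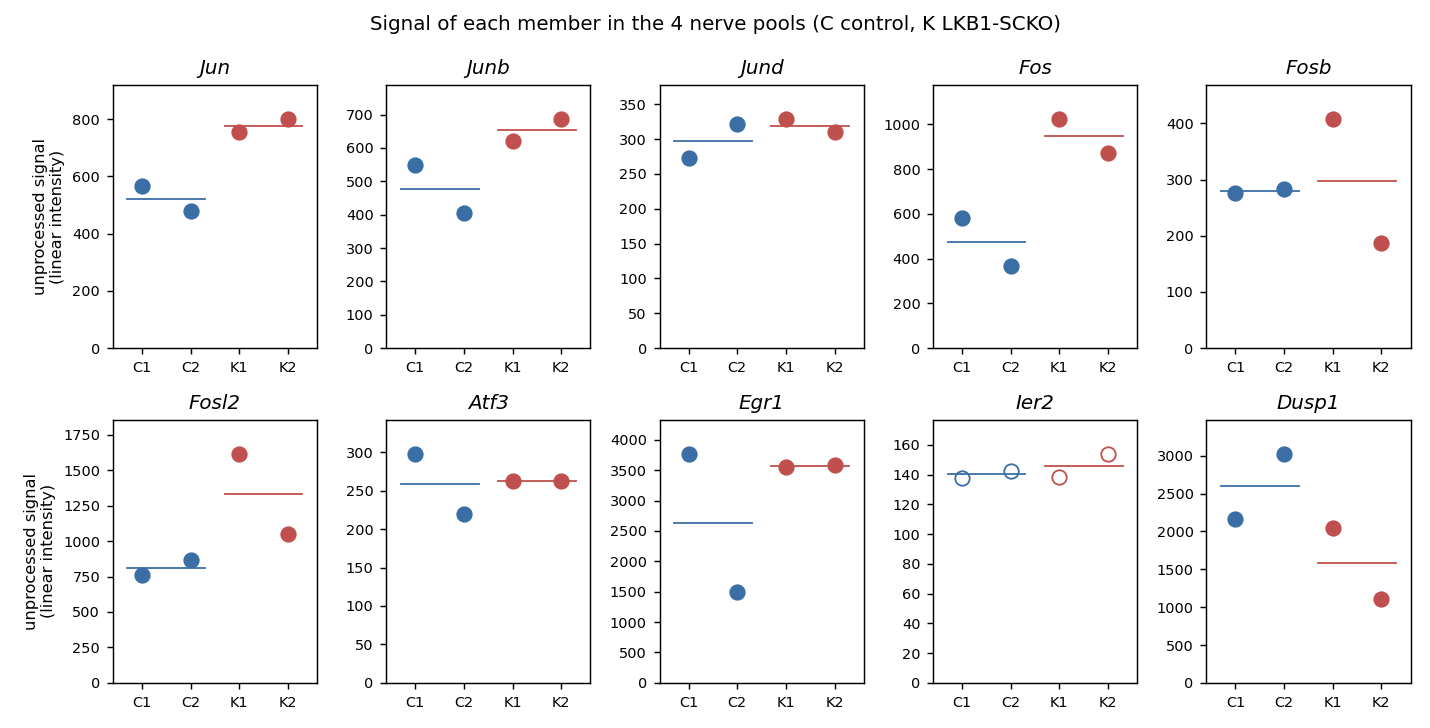
Unprocessed signal (linear intensity) of the 10 genes in control pools 1 and 2 (C1, C2, blue) and LKB1-SCKO pools 1 and 2 (K1, K2, red), at the brightest probe of each gene. Lines are genotype means, open circles are signals not detected above background, and each axis starts at 0. Jun, Junb, Fos and Fosl2 lie higher in both LKB1-SCKO pools, Fosb differs mostly between the LKB1-SCKO pools, and Ier2 is at background.

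The FOS genes behaved differently from each other. Fos, the classical immediate early partner of Jun, had the largest fold change of the 9 tested members. Its signals were 580 and 367 in control pools and 1022 and 872 in LKB1-SCKO pools, so that both LKB1-SCKO pools exceeded both controls. The log2 fold change was 1.39 (SE 0.343, 95% interval 0.52 to 2.26), a 2.62-fold difference, with an adjusted p of 0.101 in limma. Control pools alone differed by 0.96, more than the control gap of 98.6% of all genes. Without control 1 the log2 fold change was 1.87 and passed (adjusted p = 0.0413), and without control 2 it was 0.91 (adjusted p = 0.217).

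Fosl2, which encodes the FOS-related protein Fra-2, was also higher in both LKB1-SCKO pools. Signals were 760 and 864 in control pools and 1614 and 1047 in LKB1-SCKO pools. The controls lay close together, and LKB1-SCKO 1 was far above LKB1-SCKO 2. The log2 fold change of 0.85 (SE 0.282, adjusted p = 0.172 in limma) therefore depended on the mutant pools, at 1.25 without LKB1-SCKO 2 (adjusted p = 0.0301) and 0.45 without LKB1-SCKO 1 (adjusted p = 0.285). The other 2 Fosl2 probes were not detected on any array.

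Fosb, the FOS family member best known for its long-lived truncated form in neurons, showed no common direction. Its signals were 277 and 284 in the control pools, but 408 in LKB1-SCKO 1 and 187 in LKB1-SCKO 2. The controls agreed within 0.02 on the log2 scale, a gap smaller than that of most genes, while the LKB1-SCKO pools lay on opposite sides of them. Their gap of 2.64 on the log2 scale exceeded that of 99.9% of all genes. The fitted difference was -0.30 (SE 0.820, adjusted p = 0.866 in limma). It was -0.13 with an offset of 50 and -0.0059 without background correction, and the unprocessed signals ran the other way, with means of 280 in control and 297 in LKB1-SCKO pools. Leaving out LKB1-SCKO 2 gave 1.02 (adjusted p = 0.0406) and leaving out LKB1-SCKO 1 gave -1.61 (adjusted p = 0.0179), so that the call and its sign were set by which of these pools remained.

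**Figure D2:**
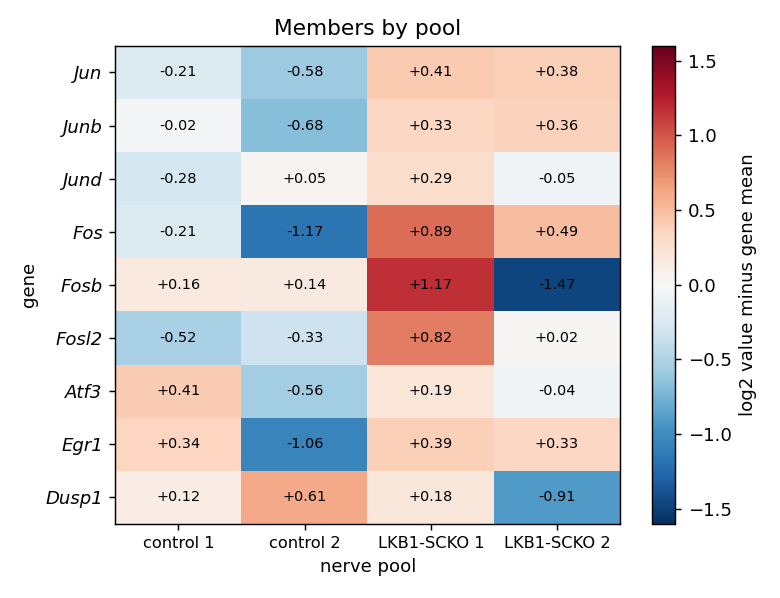
Log2 values of the 9 tested members in each of the 4 pools after subtraction of the gene's mean, with the value printed in each cell and red above and blue below the mean. Control 2 is the lowest pool for Jun, Junb, Fos, Atf3 and Egr1, and LKB1-SCKO 2 is the lowest for Fosb and Dusp1.

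Atf3 and Egr1, inducible factors outside the JUN and FOS families, differed more between the control pools than between genotypes. Atf3, a bZIP factor induced by stress and injury, gave 298 and 219 in control pools and 262 in each LKB1-SCKO pool. The mutant pools fell between the controls, with a log2 fold change of 0.15 (SE 0.330, adjusted p = 0.831 in limma) that became -0.34 without control 2. Egr1 gave 3767 and 1499 in control pools and 3557 and 3582 in LKB1-SCKO pools. Control 1 was thus level with the mutants, and control 2 was the single low pool. The gap of 1.40 between the Egr1 control values on the log2 scale was wider than that of 99.5% of genes, and that between LKB1-SCKO pools was 0.06. The log2 fold change of 0.72 (SE 0.447, adjusted p = 0.402 in limma) stood at 0.02 without control 2 and at 1.41 without control 1, where it passed (adjusted p = 0.0449).

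Dusp1 had the lowest fold change of the 9 tested members, and Ier2 was at background. Dusp1, the MAP kinase phosphatase, gave 2166 and 3023 in control pools and 2050 and 1113 in LKB1-SCKO pools. On this unprocessed scale the genotypes were separated, but after normalization LKB1-SCKO 1 (11.01) lay just above control 1 (10.96) on the log2 scale. Its log2 fold change of -0.73 (SE 0.386, 95% interval -1.71 to 0.24, limma, adjusted p = 0.327) ranged from -1.28 without LKB1-SCKO 1 to -0.19 without LKB1-SCKO 2. Ier2 was not well above background on any of the 4 arrays, with signals of 138 and 143 in control pools and 138 and 154 in LKB1-SCKO pools and detection p-values from 0.476 to 0.674. It was not tested, and no fold is given.

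**Figure D3:**
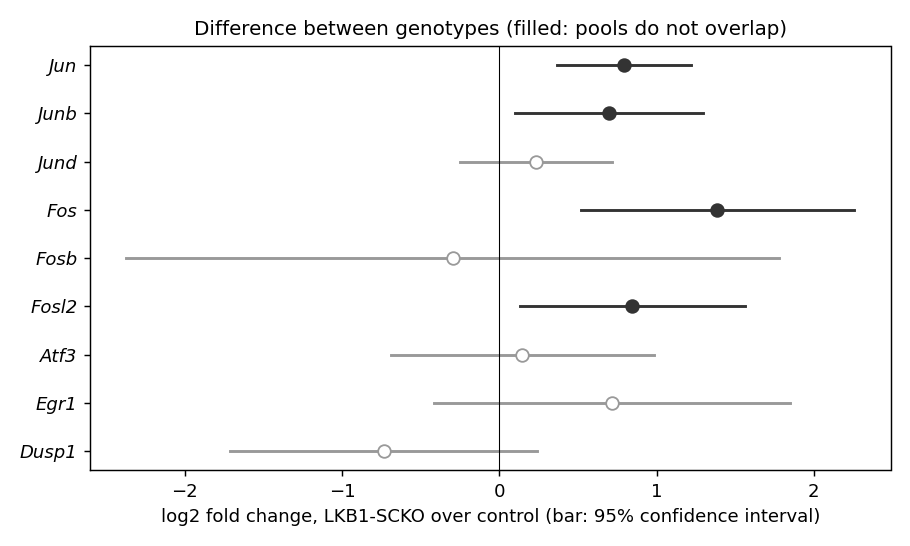
Log2 fold change of LKB1-SCKO over control for the 9 tested members, with 95% confidence intervals from limma that are not adjusted for multiple tests. Filled points mark the 4 members whose pools do not overlap between genotypes, and the interval of Fosb is the widest, from -2.37 to 1.78.

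Pools of 1 genotype lay farther apart for the median member than for the median gene. The median gap between the control pools was 0.49 on the log2 scale over the 9 members and 0.15 over all genes. Between the LKB1-SCKO pools the medians were 0.34 and 0.18. Control 1 exceeded control 2 for 6 of the 9 members, where 53.1% of all genes did, and LKB1-SCKO 1 exceeded LKB1-SCKO 2 for 8 of 9, against 48.6% of all genes. The genotype difference was larger than the wider of the pool gaps for 4 members. It was 2.17 times the gap for Jun, 1.44 times for Fos, 1.07 times for Junb and 1.06 times for Fosl2. These are the 4 members whose pools did not overlap, as held for 55.1% of all genes and for 29.3% in the higher direction. The share of all genes with a difference above the wider gap was not counted.

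Several marker lists differed between the same pools, and their part in the members' values was not tested. Skeletal muscle markers (9 of 9 tested) were low in LKB1-SCKO 1, where their summed unprocessed signal was 16100 against 65869 in LKB1-SCKO 2 and 53551 to 59036 in control pools. Of the 9 tested members, 8 were higher in LKB1-SCKO 1 than in LKB1-SCKO 2, with the widest gaps for Fosb, Dusp1 and Fosl2. Fat cell markers (3 of 4 tested) were low in control 2, the lowest pool for Jun, Junb, Fos, Atf3 and Egr1. Their sum was 3150 there, against 6691 in control 1 and 6097 to 7711 in LKB1-SCKO pools. Red blood cell markers (3 of 4 tested) summed to 12413 to 14757 in control pools and 23860 to 53641 in LKB1-SCKO pools. Most of each sum was Hba-a1, which with Alas2 was higher in both LKB1-SCKO pools. Slc4a1 overlapped, at 333 in control 1 and 270 in LKB1-SCKO 1. Macrophage markers (7 of 8 tested) summed to 4505 to 6407 in control pools and 8117 to 10708 in LKB1-SCKO pools. Lyz2 had the largest signal of this list in every pool. The pools overlapped for Csf1r, Adgre1 and Cd14, and Cd14 had a log2 fold change of -0.08. Of the 7 macrophage markers 2 rose in the same fit that called Egr3, Arc, Shh and Gdnf, where 2.46% of all genes tested rose. Ms4a7, a membrane protein gene of macrophages, gave 237 and 335 in control pools and 1352 and 995 in LKB1-SCKO pools (log2 fold change 2.83, adjusted p = 0.0211 in limma). The further Ms4a7 probes were at or near background, with signals of 125 to 185, and were not kept. Cx3cr1, the fractalkine receptor gene, gave 462 and 374 against 916 and 1382 (1.87, adjusted p = 0.0287), and missed the threshold without control 2 (adjusted p = 0.0957). The other 5 macrophage markers, and all tested markers of the other 7 cell types, did not pass. The tested markers of these 4 lists were detected in all 4 pools, other than Myh1 in LKB1-SCKO 1. Fibroblast markers (4 of 4 tested) summed to 62015 to 76645 in controls and 50446 to 56483 in LKB1-SCKO. Endothelial markers (4 of 5) summed to 3755 to 4348 and 3448 to 4340, and neutrophil markers (3 of 4) to 687 to 746 and 620 to 890. The neutrophil sums hide opposite directions. S100a8 (log2 fold change 1.01) and S100a9 (1.37, detected in 1 control pool) were higher in LKB1-SCKO, and Mmp9 (-1.55) was lower.

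**Figure D4:**
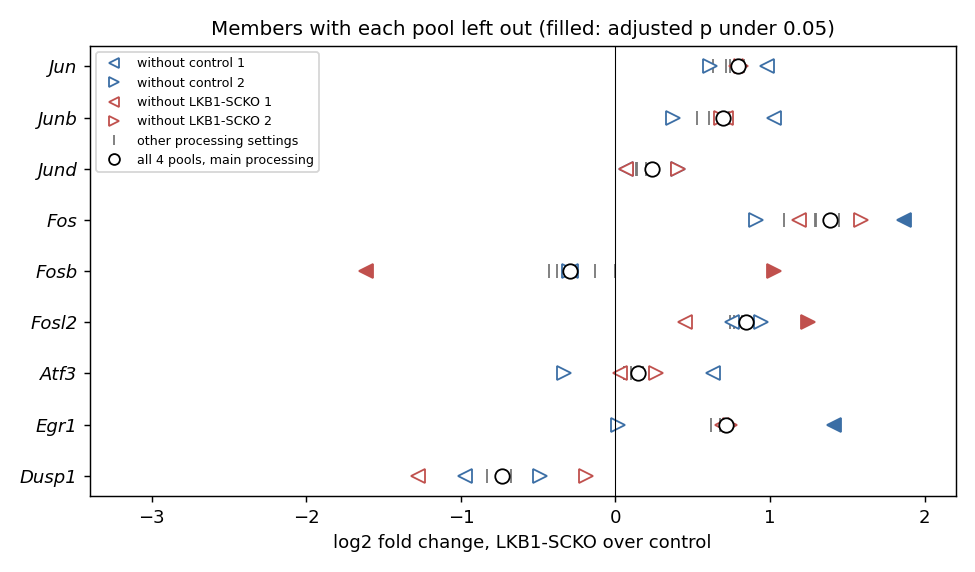
Log2 fold change of each tested member with all 4 pools (circles), with 1 pool left out (triangles, blue for a control pool and red for an LKB1-SCKO pool) and under the other processing settings (ticks), which include 2 ticks for Jun that pass the threshold. Filled triangles mark an adjusted p under 0.05, which Fos, Fosb, Fosl2 and Egr1 reach only when 1 pool is left out, Fosb in opposite directions.

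Beyond the members, 2 genes passed the test in the lists of other immediate early genes, Egr3 and Arc. Over all genes tested, 3.79% passed, and the lists were chosen with earlier results of these data known. Egr3, a zinc finger factor of the same family as Egr1, was 1 of 8 tested genes in the list of other immediate early transcription factors. It rose in LKB1-SCKO, where signals were 1800 and 1306 against 380 and 342 in controls. The log2 fold change was 2.65 (SE 0.246, adjusted p = 0.00989 in limma), and it passed without any 1 pool (highest adjusted p = 0.0416). A dimmer Egr3 probe, at signals of 164 to 177, gave 0.17 (adjusted p = 0.630 in the fit over probes), and the mean of the 2 Egr3 probes gave 1.41 (adjusted p = 0.0327). The other 7 genes of that list lay between -1.35 and -0.05 and did not pass, which set the list's median at -0.41.

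Arc, an immediate early gene of neurons that encodes a synaptic capsid-like protein, was the only 1 of 25 tested genes to pass among the feedback and effector genes. It rose in LKB1-SCKO, where signals were 279 and 310 against 177 and 195 in controls. These signals were low but detected on all 4 arrays. The log2 fold change was 1.54 (SE 0.155, adjusted p = 0.0126 in limma), it passed without any 1 pool (highest adjusted p = 0.0465), and it was 0.67 without background correction. The remaining 24 genes did not pass, 13 of them above 0, and the list's median was 0.15. Dusp2, counted above 0, was not detected in control pools, so its control values are background.

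Partners, upstream kinases and heat shock genes held no gene past the threshold in limma, which 3.79% of all genes tested passed. An unadjusted p under 0.05 in that fit was found for 22.4% of all genes. Of the other bZIP partners of AP-1, 0 of 7 passed (2 at an unadjusted p under 0.05), with a median of -0.02. The brightest, Atf2, which pairs with Jun, stood at -0.19 (adjusted p = 0.442) and the small MAF gene Mafg at -0.04 (adjusted p = 0.880). Among upstream kinases and promoter-binding factors, 0 of 13 passed (2 unadjusted), with a median of -0.02. The JNK scaffold gene Mapk8ip1 stood at -0.07 (adjusted p = 0.781) and the ERK pathway kinase gene Map2k2 at 0.09 (adjusted p = 0.722). Heat shock genes, which respond to protein stress, had 0 of 9 past the threshold (1 unadjusted), with Hspa8 at 0.32 (adjusted p = 0.264) and Bag3 at 0.33 (adjusted p = 0.251) and a median of 0.21. All 9 heat shock genes were higher in LKB1-SCKO 1 than in LKB1-SCKO 2.

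Of 8 tested genes that depend on Jun in repair Schwann cells, Shh and Gdnf passed, higher in LKB1-SCKO, and the other 6 did not pass. Over all genes tested, 2.46% passed in that direction. The list was chosen with earlier results of these data known, so its count is a description. Of the 8 genes, 6 lay above 0 and 2 below, Gap43 at -0.41 and Lif at -0.27. Bdnf, counted above 0, was not detected in control pools, so its control values are background. Shh, a morphogen gene, stood at a log2 fold change of 2.17 (limma, adjusted p = 0.00510) at its brightest probe, and at 0.49 (adjusted p = 0.216 in the fit over probes) at a dimmer one. Its value was 1.19 without background correction and 1.33 with the mean over the 2 Shh probes, and it passed in both. Gdnf, a neurotrophic factor gene, was not detected in control pools, with signals of 141 and 144 there. In LKB1-SCKO pools its signals were 235 and 249. Its probe entered the test only through the LKB1-SCKO pools, and its control values are background. The fitted p (limma, adjusted p = 0.00370) is therefore no measure of a rise over a detected control level. A further Gdnf probe was not detected on any array, at signals of 132 to 153. The size of the Gdnf difference depended on the background correction. Against the lowest detected signal of the control arrays it was at least 3.11-fold with the offset of 16. It was at least 2.09-fold with an offset of 50 and at least 1.48-fold without background correction. The fitted call held in all 3 settings, with the same limit. The median of the list was 0.36, or 0.31 with undetected genes at their bound.

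**Figure D5:**
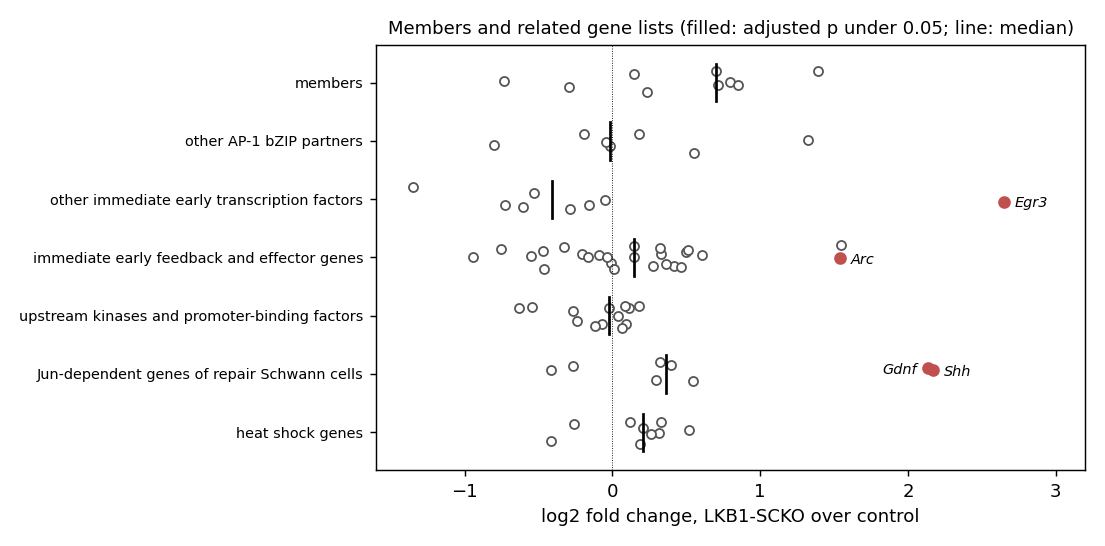
Log2 fold change of LKB1-SCKO over control for the 9 tested members and for each tested gene of 6 related lists, with a line at each median and filled points for an adjusted p under 0.05. Egr3, Arc, Shh and Gdnf are the genes that passed, and none of the members passed. Gdnf, Bdnf and Dusp2 are drawn at their fitted values although they were not detected in control pools.

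The genes whose pool profiles were nearest to Jun and to Fos were found by Euclidean distance over the 4 centred log2 values. For Jun these were the histone gene H2aj (distance 0.0360), the adhesion receptor gene Adgrb1 (0.0566) and Traf4 (0.0579), an adaptor of receptor signalling. The log2 fold changes of H2aj and Traf4 were 0.76 and 0.80, close to the 0.79 of Jun, and none of the 3 passed (limma, adjusted p from 0.0788 to 0.0873). Adgrb1 was not detected in control pools, so its profile there is that of background. For Fos they lay farther off, with the acute phase gene Orm1 at 0.250, the protease gene Corin at 0.332 and the lipogenic gene Thrsp at 0.341. Corin alone of these passed (log2 fold change 1.38, adjusted p = 0.0385 in limma), and it missed the threshold when control 2 (adjusted p = 0.123) or else LKB1-SCKO 1 (adjusted p = 0.0941) was left out. The Corin call was also lost without the detection filter (adjusted p = 0.0538) and with the authors' processed values (adjusted p = 0.0644), and its value was 0.63 without background correction. Among the members, the nearest to Jun was Junb at a distance of 0.230. Profiles over 4 pools leave many genes close to each other, so these distances are descriptions.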

How the data were processed

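Each array carried RNA of 3 pooled nerves, with 2 pools per genotype, so p-values measure the spread between pools and their number limits precision. Per the file headers, the deposited table of unprocessed values gives a non-normalized signal intensity and a detection p-value per probe. The authors' processed intensities were deposited too, with equal distributions on the 4 arrays. The submitters' processing notes name GenomeStudio (2010), and further steps are not stated. Of 45281 probes, 34885 had 1 platform symbol, 18 several and 10378 none, and symbols were updated through a RefSeq table (GRCm38.p6). From the unprocessed intensities, background was corrected with normexp (limma 3.58.1, R 4.3.3, offset 16), followed by quantile normalization and log2. Probes with a detection p under 0.05 on both arrays of a genotype were kept (19732). The brightest kept probe stood for a gene, which gave 10858 genes for lmFit and eBayes with genotype as the only term, two-sided, with Benjamini-Hochberg adjustment. Every kept probe was also fitted. The fit was tested on simulated data. The members and lists were chosen with earlier results of these data known. Named genes were all members, Stk11, up to 4 called or otherwise the 2 brightest genes per list, and the 3 nearest profiles to Jun and Fos. Same-numbered pools shared only a number. An undetected genotype gives a bound only, which compares the brighter mean with the lowest detected signal of the dimmer arrays, or with the probe's own where higher.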

Additional observations from a re-analysis of the deposited data

How the results depend on the processing

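Every tested member but Fosb and Atf3 kept its direction in all 15 alternatives. With 1 pool left out, Fosb ran from -1.61 to 1.02 and Atf3 from -0.34 to 0.63. Of the other named genes, Mafg reversed to 0.096 with the mean over probes and ran from -0.12 to 0.035 with 1 pool left out, and Map2k2 reversed to -0.022 with median scaling, and the cause was not tested. The number of members that rose was 1 (Jun) without background correction and 1 (Jun) with an offset of 50, and with 1 pool left out it ran from 0 to 2. The number that fell ran from 0 to 1 with 1 pool left out. Genes past the threshold numbered 412, 635 without background correction, and 112 to 483 with 1 pool left out. Probes past it numbered 497, 849 without background correction, 803 with an offset of 50, 257 without the detection filter, 284 with the authors' processed values, and 94 to 534 with 1 pool left out. With a pool left out, the remaining one is assumed to vary like the others, and the normalization and the genes tested were kept. With the replicate number as a block, 172 genes and 252 probes passed and no member did. Deviations of same-numbered pools correlated at -0.17 across genes, and with crossed numbers, a setting added after seeing the data, 349 genes and 380 probes passed. Stk11 missed the threshold without the detection filter (adjusted p = 0.0582), with the authors' processed values (0.0625) and with the block (0.109). Cx3cr1 missed it with the authors' processed values (0.0515) and with the block (0.0800), and Ms4a7 with the block (0.0576). Without background correction Jund stood at 0.14 and Atf3 at 0.054, and with median scaling at 0.13 and 0.053. Further probes of Junb and Fosl2 and the probe of Ier2 lay at background, so the planned comparison of further member probes was not made.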

Other observations

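Some relatives of the members were higher or lower in both LKB1-SCKO pools without passing the test, and were named after their values were seen. Pools of the genotypes did not overlap for 55.1% of all genes. The values are those of the brightest kept probe, of 3 for Dusp4, 2 for Batf3 and 1 for Nr4a2. Dusp4, a nuclear MAP kinase phosphatase gene, gave signals of 559 and 339 in control pools and 849 and 1097 in LKB1-SCKO pools (log2 fold change 1.55, limma, adjusted p = 0.0918). Batf3, a bZIP partner of JUN proteins in immune cells, gave 211 and 246 in control pools and 434 and 321 in LKB1-SCKO pools (1.32, adjusted p = 0.0941). Nr4a2, an orphan nuclear receptor gene of the immediate early class, was lower, at 1274 and 1189 against 766 and 872 (-0.60, adjusted p = 0.0827).

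Control 2 stood apart upward for another set of inducible genes, also named after their values were seen, whereas it was the low pool for Egr1 and Fos. Csrnp1, an immediate early nuclear protein gene, gave 279 in control 1 and 888 in control 2, against 311 and 224 in LKB1-SCKO pools. Nfkbia, the NF-kB inhibitor gene, gave 1156 and 3263 in control pools and 1420 and 756 in LKB1-SCKO pools. Dusp1 shared this order of pools, with control 2 highest and LKB1-SCKO 2 lowest.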
